A study of Mus musculus with 25 samples.

Results

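PPAR alpha is the nuclear receptor through which the liver senses fatty acids, and 8 genes were followed here: Ppara, which encodes it, and 7 genes known as its targets, Cyp4a10, Cyp4a14, Ehhadh, Acot1, Vnn1, Pdk4 and Fgf21. The members were taken by their symbols from 48795 genes in each library, and all 8 were among the 15625 genes that passed the filter on low counts. RNA of liver and liver tumors of male C57BL/6J mice was sequenced in 25 libraries, to ask how a western-like diet, a carcinogen and tumor growth change the expression of metabolic genes. Untreated mice gave liver on the control diet (nonDEN-L-CD, n = 3) and liver on the western diet (nonDEN-L-WD, n = 4). The other 3 groups came from mice that were given diethylnitrosamine (DEN), a carcinogen activated in hepatocytes, by injection at 25 mg/kg and 2 weeks of age: DEN-L-CD (n = 4) was liver on the control diet, DEN-PT-WD (n = 8) was the liver around tumors on the western diet, and DEN-T-WD (n = 6) was the tumors themselves. Diets began at weaning in all groups. By the study's account the tumors of DEN mice on the control diet were too small to be separated, so DEN-L-CD livers may hold small tumors. There was no tumor group on the control diet, and neither the labels nor the study's methods give the hour of harvest or the feeding state.

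PPAR alpha binds DNA as a heterodimer with a retinoid X receptor and is activated by fatty acids and by fibrate drugs. In fasting it turns on the uptake of fatty acids and their oxidation in peroxisomes, microsomes and mitochondria, together with ketone body synthesis and the secretion of the hormone FGF21. Rodent livers respond to its agonists with peroxisome proliferation, and Cyp4a10, Cyp4a14 and Acot1 are classical reporters of that response.

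The expected counts of a library summed to between 21530083 and 38074411 (median 27610432). The study's methods speak of biological replicates, and the labels do not say which mouse each library came from, so the p-values below measure the spread between these samples, part of which may be technical. Hepatocyte markers were abundant in every library, with a summed level of the 7 matched markers of at least 32715 TPM (a level per transcript length, scaled to the same total in each library). One tumor library, DEN-T-WD replicate 5, stood apart: its mean correlation with the other tumors was 0.948, against 0.967 to 0.972 for the other 5. Its albumin level was 21879 TPM where the other tumors had between 82845 and 99736 TPM. Where leaving this library out changed a call between tumors and peritumoral liver in a gene named here, the value without it is given, as it is for some other genes in which it lay apart.

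On GRCm38, in the GENCODE M21 annotation, Cyp4a14 (ENSMUSG00000028715, chr4:115486200-115496142, minus strand) and Cyp4a10 (ENSMUSG00000066072, chr4:115518264-115533649, plus strand) lie 22.1 kb apart in the Cyp4a cluster. Ppara (ENSMUSG00000022383) is at chr15:85734983-85802819, Acot1 (ENSMUSG00000072949) at chr12:84009490-84018371 and Vnn1 (ENSMUSG00000037440) at chr10:23894688-23905343, all on the plus strand. The minus strand holds Ehhadh (ENSMUSG00000022853) at chr16:21761287-21787807, Pdk4 (ENSMUSG00000019577) at chr6:5483351-5496309 and Fgf21 (ENSMUSG00000030827) at chr7:45613886-45615490. Reads could be shared with near-identical copies for Cyp4a10 and Acot1, because 29.8% of the 50-base windows of Cyp4a10 transcripts also occur in another gene (24.5% in Cyp4a32) and 19.2% of those of Acot1 (13.6% in Acot2). RSEM, the program that made the counts, divides such reads by estimation, and the levels of these genes carry that uncertainty. The share was 1.4% for Pdk4, 0.235% for Cyp4a14 and 0 for the other 4 genes.

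Promoter sequence (250 bases before to 50 bases after the RefSeq transcript start, GRCm38.p6) was at hand for 5 of the 8 genes, namely Ppara, Ehhadh, Acot1, Pdk4 and Fgf21. The promoters of Fgf21 and Acot1 are printed because these genes went in opposite directions between tumors and peritumoral liver. Capitals mark a match to TGATGNAAT, the C/EBP-ATF composite element, read on the minus strand of the promoter, and the Acot1 window holds no match to it.
Fgf21, chr7:45615441-45615740, minus strand: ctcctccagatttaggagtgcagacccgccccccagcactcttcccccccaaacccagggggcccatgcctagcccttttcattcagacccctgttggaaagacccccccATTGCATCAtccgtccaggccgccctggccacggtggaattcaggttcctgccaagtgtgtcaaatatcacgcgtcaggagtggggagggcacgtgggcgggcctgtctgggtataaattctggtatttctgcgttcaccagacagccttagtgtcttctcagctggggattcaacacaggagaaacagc
Acot1, chr12:84009252-84009551, plus strand: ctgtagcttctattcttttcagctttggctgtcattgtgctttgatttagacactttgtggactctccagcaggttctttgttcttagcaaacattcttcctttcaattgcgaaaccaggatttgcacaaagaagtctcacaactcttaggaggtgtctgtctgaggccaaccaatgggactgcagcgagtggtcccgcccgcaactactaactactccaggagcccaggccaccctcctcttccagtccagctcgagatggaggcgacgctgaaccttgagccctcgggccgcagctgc
The match in Fgf21 spans bases -140 to -132 from the start, and such a match was present in 311 of 32544 mouse promoters (0.956%), searched on both strands. The direct repeat to which PPAR alpha and the retinoid X receptor bind, searched on both strands as AGGTCANAGGTCA, had no match in the 5 windows with up to 3 mismatches, against 24.7% of all promoters with that tolerance and 3.87% with up to 2 mismatches. The single repeat unit AGGTCA was absent from the same 5 windows and present in 16.2% of all promoters, and TATAA was found in 1 of the 5 (Fgf21, bases -28 to -24) and in 24.8% of all. These are matches of letters in 300 bases, and response elements farther away were not searched.

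Ppara itself varied little in TPM. Its level was 99.7, 55.9 and 64.8 TPM in the nonDEN-L-CD livers, 102, 98.9, 102 and 77.4 TPM in nonDEN-L-WD, and 77.9, 88.4, 66.0 and 75.6 TPM in DEN-L-CD. Peritumoral livers ran from 63.3 to 108 TPM (median 83.0) and tumors from 46.7 to 86.0 TPM (median 72.3), so that every pair of groups overlapped in TPM, although 5 of the 6 tumors lay below all 4 nonDEN-L-WD livers. On normalized counts, the scale of the tests, tumors and nonDEN-L-WD did not overlap. Group means in TPM followed the order nonDEN-L-WD (95.0 ± 11.8, SD, n = 4), DEN-PT-WD (84.4 ± 18.1, n = 8), DEN-L-CD (77.0 ± 9.19, n = 4), nonDEN-L-CD (73.5 ± 23.2, n = 3) and DEN-T-WD (70.3 ± 13.2, n = 6), a span of 1.35-fold. Between neighbours in that order only the last pair passed an adjusted p of 0.05. In tumors Ppara was lower than in each other group in the fit of all 25 libraries: the log2 fold change was -0.72 ± 0.17 (SE) against nonDEN-L-WD (adjusted p = 0.00157, edgeR's quasi-likelihood test), -0.49 ± 0.18 against DEN-L-CD (adjusted p = 0.0241), -0.49 ± 0.19 against nonDEN-L-CD (adjusted p = 0.0338) and -0.38 ± 0.15 against DEN-PT-WD (adjusted p = 0.0458). A gene was counted as called when its adjusted p was 0.05 or less and its log2 fold change was 1 or more in size, and Ppara was under that fold in all 10 comparisons of pairs of groups. The difference from nonDEN-L-WD had an adjusted p of at most 0.05 in all 17 alternative settings, while the one from peritumoral liver was above 0.05 in 12 of 21 (adjusted p from 0.0185 to 0.193), the one from nonDEN-L-CD in 7 of 16 and the one from DEN-L-CD in 5 of 17. In peritumoral liver's case these included both limma fits on TPM and leaving out any of 8 single libraries. One of those was DEN-T-WD replicate 5, which had the lowest Ppara level of all 25 libraries (-0.28 without it, adjusted p = 0.108). In bulk tissue, fewer cells that express a gene and less of its RNA per cell cannot be told apart, here and for all values below.

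Cyp4a10 and Cyp4a14 encode cytochrome P450 enzymes that hydroxylate the terminal carbon of fatty acids in microsomes. They were the most variable members among peritumoral livers, and both were lower in tumors than in peritumoral liver. Cyp4a10 was at 263, 85.4 and 48.3 TPM in nonDEN-L-CD, 216, 211, 304 and 273 TPM in nonDEN-L-WD, and 184, 157, 74.7 and 100.3 TPM in DEN-L-CD. Its peritumoral levels ran from 114 to 623 TPM (median 194) and its tumor levels from 46.1 to 202 TPM (median 64.6). All 6 tumors lay below all 4 nonDEN-L-WD livers, while the ranges of tumors and peritumoral livers overlapped. The tumor level was 3.08-fold lower than the peritumoral one (log2 fold change -1.62 ± 0.45, adjusted p = 0.00621) and 3.44-fold lower than in nonDEN-L-WD (log2 fold change -1.78 ± 0.50, adjusted p = 0.00537). Against the 2 control-diet groups the tumor differences were -0.98 ± 0.54 and -0.89 ± 0.50 (adjusted p = 0.129 against nonDEN-L-CD and 0.150 against DEN-L-CD).

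Cyp4a14 had a wider span, 49.5-fold between the lowest and the highest library. It was at 120, 62.9 and 14.3 TPM in nonDEN-L-CD, 80.6, 172, 189 and 124 TPM in nonDEN-L-WD and 67.8, 102, 45.8 and 42.8 TPM in DEN-L-CD. Peritumoral livers ran from 87.7 to 708 TPM (median 172) and tumors from 24.6 to 191 TPM (median 48.7). A single tumor, replicate 1, exceeded the peritumoral minimum, and the other 5 were at or below 66.3 TPM. Tumors were 3.77-fold lower than peritumoral liver (log2 fold change -1.92 ± 0.54, adjusted p = 0.00758). Against the other groups the tumor differences did not pass the test: -1.36 ± 0.60 against nonDEN-L-WD (adjusted p = 0.0653), -0.37 ± 0.60 against DEN-L-CD (adjusted p = 0.645) and -0.31 ± 0.66 against nonDEN-L-CD (adjusted p = 0.712). On the western diet Cyp4a14 had higher group means than on the control diet, 141 ± 48.9 TPM (SD, n = 4) against 65.6 ± 52.7 (n = 3) in untreated mice and 231 ± 199 (n = 8) against 64.6 ± 27.4 (n = 4) in DEN mice, and neither diet difference passed the test (log2 fold change 1.04 ± 0.74, adjusted p = 0.329, and 1.55 ± 0.62, adjusted p = 0.108). With limma on log2(TPM + 1) the second of these was 1.61 (adjusted p = 0.0234). Without the peritumoral replicate 2, the highest library, the difference between tumors and peritumoral liver was -1.39 (adjusted p = 0.0243) for Cyp4a14 and -1.30 (adjusted p = 0.017) for Cyp4a10. Without the tumor replicate 1 the Cyp4a14 value was -2.54 (adjusted p = 0.000922), and without the tumor replicate 5 it was -1.74 (adjusted p = 0.016).

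**Figure D1:**
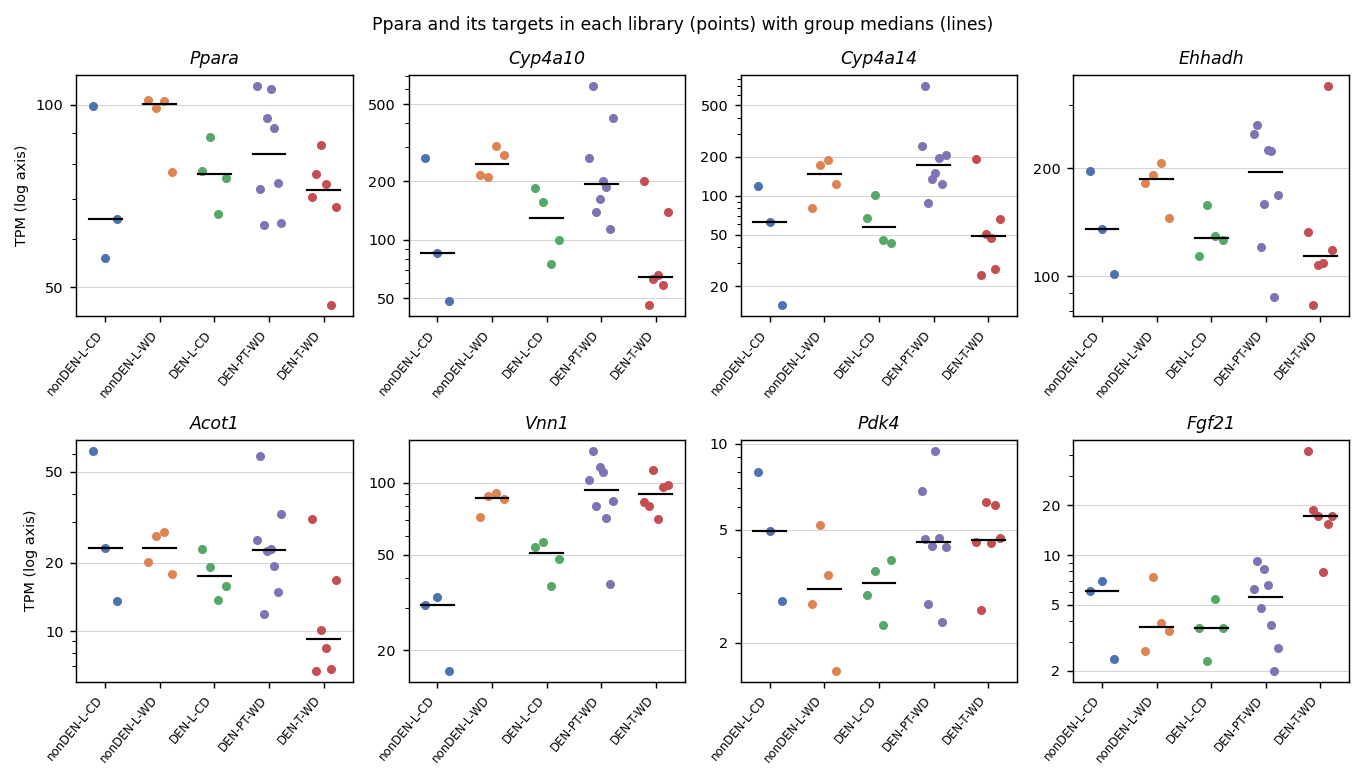
TPM of each of the 8 genes (log axis) in each of the 25 libraries by group, with a line at each group's median. Fgf21 is highest in the tumors, where 5 of 6 libraries exceed the peritumoral maximum of 9.25 TPM, Vnn1 is lowest in the 3 nonDEN-L-CD livers, and Cyp4a10, Cyp4a14 and Acot1 have their lowest group medians in tumors.

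The other Cyp4a genes of the chromosome 4 cluster did not move as one in tumors. Cyp4a32, which shares sequence with Cyp4a10, was lower than in peritumoral liver (log2 fold change -1.13 ± 0.23, adjusted p = 0.000528), with tumor levels of 4.97 to 11.1 TPM and peritumoral levels of 8.79 to 20.6 TPM. Cyp4a31 was higher (2.02 ± 0.42, adjusted p = 0.000732), at 3.96 to 40.4 TPM in tumors and 2.64 to 10.2 TPM in peritumoral liver. The tumor replicate 5 again differed from the rest: it had the lowest tumor level of Cyp4a31, and without it Cyp4a31 rose by 2.25 on the log2 scale. Cyp4a12a, a hydroxylase with male-biased expression in mouse liver, had a log2 fold change of -0.81 ± 0.31 (adjusted p = 0.0432) with all tumors and -1.38 (adjusted p = 5.18e-05) without replicate 5, whose 251.4 TPM was the highest tumor level. Cyp4a12b had -0.43 ± 0.49 (adjusted p = 0.5256), and -1.51 (adjusted p = 0.00223) without that library.

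**Figure D2:**
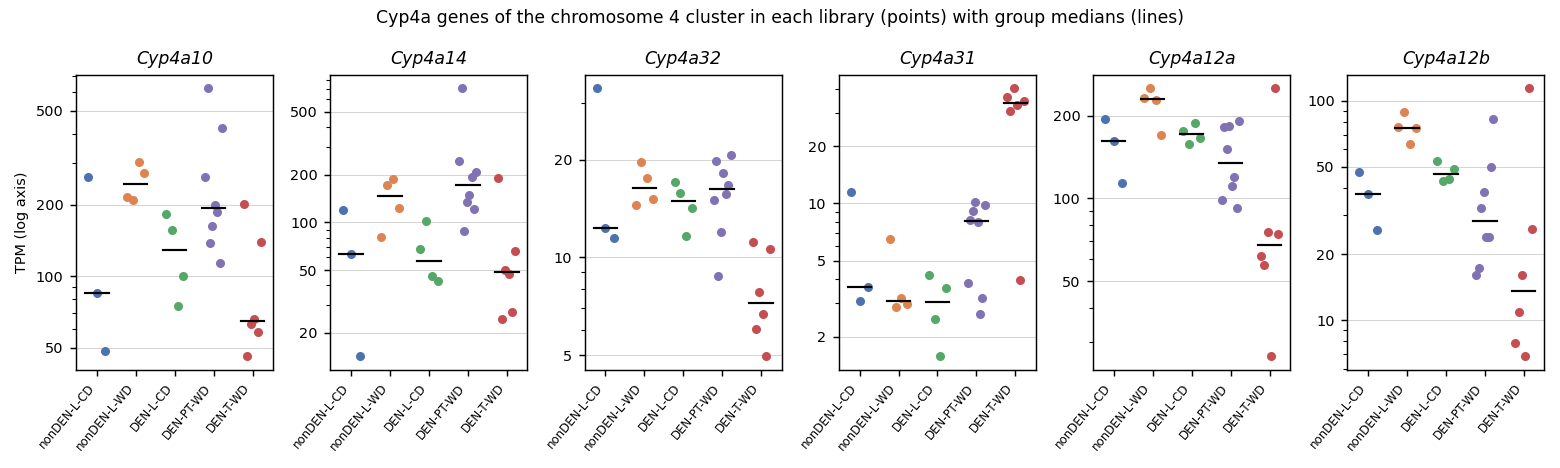
TPM (log axis) of 6 Cyp4a genes of the chromosome 4 cluster in each library by group, with a line at each group's median. Tumors have the lowest medians for Cyp4a10, Cyp4a14, Cyp4a32, Cyp4a12a and Cyp4a12b and the highest median (33.7 TPM) for Cyp4a31, and the single tumor that lies apart in the last 3 panels is replicate 5.

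Ehhadh encodes the peroxisomal bifunctional enzyme of fatty acid oxidation. Its levels were 197, 135 and 102 TPM in nonDEN-L-CD, 183, 192, 207 and 145 TPM in nonDEN-L-WD and 114, 158, 130 and 126 TPM in DEN-L-CD. Peritumoral livers ran from 87.6 to 265 TPM (median 196) and tumors from 83.0 to 341 TPM (median 114). The highest of all 25 libraries was the tumor replicate 5, and the other 5 tumors were at or below 133 TPM. With all libraries no comparison of Ehhadh passed the test in this fit (tumors against peritumoral liver -0.49 ± 0.26, adjusted p = 0.145). Without replicate 5 the tumor level was lower than in peritumoral liver (-0.87, adjusted p = 0.00223) and than in nonDEN-L-WD (-1.05, adjusted p = 0.00104). Hsd17b4, the D-specific bifunctional enzyme of the same pathway, was lower in tumors than in peritumoral liver with all libraries (log2 fold change -0.62 ± 0.10, adjusted p = 5.03e-05).

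Acot1 encodes a cytosolic thioesterase that releases fatty acids from coenzyme A. It was at 61.9, 23.2 and 13.6 TPM in nonDEN-L-CD, 20.2, 26.3, 27.3 and 17.8 TPM in nonDEN-L-WD and 23.02, 19.2, 13.7 and 15.8 TPM in DEN-L-CD. Peritumoral livers had between 11.9 and 58.8 TPM (median 22.7) and tumors between 6.71 and 31.03 TPM (median 9.27), with 4 of the 6 tumors below the lowest peritumoral liver. The tumor level was 2.18-fold lower than the peritumoral one (log2 fold change -1.12 ± 0.39, adjusted p = 0.0266). This call was lost in 6 alternatives: on log2(TPM + 1) the fold was under the threshold at -0.98 (adjusted p = 0.0299), and the adjusted p was 0.0771 without peritumoral replicate 2 (-0.82), 0.0661 without tumor replicate 2 (-0.99), 0.0527 without tumor replicate 3 (-1.07), 0.0611 without tumor replicate 4 (-1.03) and 0.0561 without tumor replicate 5 (-0.98). Against nonDEN-L-CD the difference was -1.82 ± 0.48 (adjusted p = 0.00256), and -0.96 (adjusted p = 0.113) without nonDEN-L-CD replicate 1, the highest library for this gene. Of its neighbours on chromosome 12, the peroxisomal thioesterases Acot3 (-1.52 ± 0.60, adjusted p = 0.0497, and -1.32, adjusted p = 0.0902, without the tumor replicate 5) and Acot4 (-0.84 ± 0.26, adjusted p = 0.012) were lower in tumors than in peritumoral liver, and the mitochondrial thioesterase Acot2 had 0.06 ± 0.33 (adjusted p = 0.901).

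Vnn1 encodes pantetheinase, a membrane-anchored enzyme that splits pantetheine, a breakdown product of coenzyme A, into pantothenate and cysteamine. It was the member that followed the diet in untreated mice. Its levels were 30.8, 33.4 and 16.4 TPM in nonDEN-L-CD, 71.9, 87.9, 90.7 and 85.5 TPM in nonDEN-L-WD and 53.9, 56.9, 37.0 and 48.2 TPM in DEN-L-CD. Peritumoral livers ran from 37.9 to 136 TPM (median 93.6) and tumors from 71.0 to 114 TPM (median 89.6). Every one of the other 22 libraries was above the 3 nonDEN-L-CD livers in TPM. Vnn1 was 2.90-fold higher on the western diet in untreated mice (log2 fold change 1.54 ± 0.31, adjusted p = 0.00115). Peritumoral liver (1.43 ± 0.28, adjusted p = 0.000317) and tumors (1.27 ± 0.29, adjusted p = 0.00073) were also higher than nonDEN-L-CD, the same 3 libraries in each case. DEN alone gave 0.83 ± 0.30 (adjusted p = 0.0498), under the fold required for a call, and its adjusted p was above 0.05 in 8 of 14 alternative settings (0.0249 to 0.238). Peritumoral liver differed from DEN-L-CD by 0.60 ± 0.24 (adjusted p = 0.106), and the test of whether the diet difference itself changed with DEN gave -0.93 ± 0.38 (adjusted p = 0.125). Tumors and peritumoral livers had means of 90.4 ± 15.3 TPM (SD, n = 6) and 92.4 ± 30.7 TPM (n = 8), with a log2 fold change of -0.16 ± 0.21 on TMM-normalized counts (adjusted p = 0.589). Vnn3, the neighbouring gene of the same family, was also higher on the western diet in untreated mice (1.05 ± 0.29, adjusted p = 0.0121) and in DEN-L-CD without that diet (1.04 ± 0.29, adjusted p = 0.0136), both against nonDEN-L-CD, and it rose in tumors over peritumoral liver (1.195 ± 0.20, adjusted p = 6.61e-05), from 31.9 to 72.4 TPM in peritumoral livers to 51.1 to 178 TPM in tumors. The lowest tumor was replicate 5, with the others at 136 TPM or more, and without it Vnn3 was higher by 1.37 (adjusted p = 7.59e-08).

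The nonDEN-L-CD livers, against which Vnn1 was called, also differed from the rest in other genes. Of 14 acute phase genes, whose products the liver secretes in inflammation, 10 were called lower in nonDEN-L-WD and 7 in DEN-L-CD (5.28% and 4.7% of all tested genes were called in these comparisons, in either direction), led by Saa2 (-4.92 ± 0.996, adjusted p = 0.0013, and -4.29 ± 0.97, adjusted p = 0.00317) and Saa1 (-4.15 ± 0.96, adjusted p = 0.00362, and -3.79 ± 0.95, adjusted p = 0.00642). Saa1 was at 250 TPM in nonDEN-L-CD replicate 1 and at 4138 and 4842 TPM in replicates 2 and 3. Replicate 1 was the library with the highest Ppara, Cyp4a10, Cyp4a14, Ehhadh, Acot1 and Pdk4 of the 3. The summed level of 5 adipose markers was 2.44 to 2.98 TPM in nonDEN-L-CD and 22.02 to 78.5 TPM in nonDEN-L-WD, with Lep at 0 in all 3 nonDEN-L-CD libraries. Of 13 clock genes, Arntl, a core activator of the circadian clock, was called lower (-1.88 ± 0.40, adjusted p = 0.0018, in nonDEN-L-WD and -1.95 ± 0.40, adjusted p = 0.00145, in DEN-L-CD) and Per3, a clock repressor gene, higher (1.18 ± 0.27, adjusted p = 0.00349, and 1.19 ± 0.27, adjusted p = 0.00335). The part of these differences in the Vnn1 result was not tested. Without nonDEN-L-CD replicate 1 the same single member was called in untreated mice on the western diet.

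Pdk4 encodes a kinase that inactivates the pyruvate dehydrogenase complex and so spares glucose when fatty acids are burnt. It was low throughout, at 7.98, 4.96 and 2.81 TPM in nonDEN-L-CD, 2.74, 5.19, 3.46 and 1.60 TPM in nonDEN-L-WD and 2.94, 3.58, 2.31 and 3.92 TPM in DEN-L-CD. Peritumoral livers ran from 2.36 to 9.46 TPM (median 4.51) and tumors from 2.62 to 6.26 TPM. All groups overlapped, and no comparison of Pdk4 passed the test with all libraries. The values farthest from 0 were -0.88 ± 0.38 for DEN-L-CD and -0.85 ± 0.37 for nonDEN-L-WD, both against nonDEN-L-CD (adjusted p = 0.0972 and 0.104), and 1.26 ± 0.49 for the interaction of DEN with diet (adjusted p = 0.108). Without nonDEN-L-CD replicate 3, the lowest of that group, the first 2 were called at -1.18 (adjusted p = 0.0431) and -1.15 (adjusted p = 0.0469). Of the other pyruvate dehydrogenase kinases, Pdk1 (-0.78 ± 0.17, adjusted p = 0.00117) and Pdk2 (-0.64 ± 0.15, adjusted p = 0.00162) were lower in tumors than in peritumoral liver, and Pdk3 had 0.55 ± 0.28 (adjusted p = 0.124).

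Fgf21 encodes the secreted hormone of the fasting and stress response of the liver, and it was the only member that rose in tumors over peritumoral liver. It was at 6.05, 6.98 and 2.35 TPM in nonDEN-L-CD, 2.63, 7.39, 3.90 and 3.47 TPM in nonDEN-L-WD and 3.63, 2.30, 5.41 and 3.63 TPM in DEN-L-CD. Peritumoral livers had between 2.01 and 9.25 TPM, and the 6 tumors between 7.88 and 42.5 TPM (median 17.2). Every tumor was above every library of the nonDEN-L-CD, nonDEN-L-WD and DEN-L-CD groups, and 5 of 6 were above every peritumoral liver, in TPM. On normalized counts tumors were apart from DEN-L-CD and overlapped with the other groups. The tumor level was 3.29-fold higher than the peritumoral one (log2 fold change 1.72 ± 0.34, adjusted p = 0.000432). Against the other groups it was 3.85-fold higher than DEN-L-CD (1.95 ± 0.44, adjusted p = 0.00106), 3.55-fold higher than nonDEN-L-WD (1.83 ± 0.44, adjusted p = 0.00146) and 2.75-fold higher than nonDEN-L-CD (1.46 ± 0.48, adjusted p = 0.0135). These 4 comparisons share the tumor libraries. Without the tumor replicate 1, the highest, the rise over peritumoral liver was 1.37 (adjusted p = 0.002), and without nonDEN-L-CD replicate 3 the rise over that group was 1.11 (adjusted p = 0.0895). Between the 4 groups of non-tumor tissue, group means lay between 3.74 ± 1.28 TPM (SD, n = 4) and 5.47 ± 2.58 TPM (n = 8) and no pair passed the test.

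Other genes around FGF21 were measured in the same tumors. Of 9 genes of its receptors and of regulators upstream of it, 2 were called higher in tumors than in peritumoral liver and none lower, where 7.9% of all genes were called in either direction: Ddit3, a transcription factor of the integrated stress response (1.33 ± 0.17, adjusted p = 4.52e-06), and Fgfr2, an FGF receptor (1.04 ± 0.15, adjusted p = 1.44e-05). Klb, the co-receptor of FGF21, was lower (-0.38 ± 0.12, adjusted p = 0.0142), under the fold required for a call, at 9.63 to 15.2 TPM in tumors and 12.4 to 17.4 TPM in peritumoral livers. Of 12 genes of the fasting and insulin response 5 were lower and 2 higher at an adjusted p of at most 0.05, beside 18.1% and 19.5% of all genes, with a list median of -0.58. The called ones were G6pc, the glucose 6-phosphatase of gluconeogenesis, which fell (-1.38 ± 0.27, adjusted p = 0.000349), and Igfbp1, an insulin-repressed binding protein (2.24 ± 0.44, adjusted p = 0.000415), and Pnpla3, a lipogenic target (1.67 ± 0.55, adjusted p = 0.0194), which rose. Igfbp1 was at 82.6 TPM in the tumor replicate 5 and at 946 to 1757 TPM in the other tumors, and Pnpla3 at 0.16 TPM against 2.35 to 5.53 TPM. Without that library the rise was 2.48 for Igfbp1 (adjusted p = 5.07e-06) and 1.92 for Pnpla3 (adjusted p = 0.0014).

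Set by comparison, 1 of the 8 members was called on the western diet over the control diet in untreated mice (Vnn1), where 5.28% of all tested genes were called and 23.2% passed the adjusted p alone. With DEN on the control diet (DEN-L-CD over nonDEN-L-CD) no member was called by edgeR, against 4.7% of all genes. By the adjusted p alone 1 member (Vnn1) passed, against 21.3% of all genes. At an unadjusted p under 0.05 there were 2 members, beside 5379 of the 15625 tested genes. With DEN on the western diet (DEN-PT-WD over nonDEN-L-WD) none was called and none passed the adjusted p alone, against 2.76% and 12.4% of all genes. No member had an unadjusted p under 0.05, beside 4630 of the 15625 tested genes. Between the diets in DEN mice (DEN-PT-WD over DEN-L-CD) none was called and none passed the adjusted p alone, against 1.9% and 10.6%. An unadjusted p under 0.05 was found for 2 of the 8, beside 4267 of the 15625 tested genes. DESeq2's Wald test likewise called none in these 3 comparisons. In tumors over peritumoral liver, 4 of 8 were called, Fgf21 higher and Cyp4a10, Cyp4a14 and Acot1 lower, and Ppara also passed the adjusted p alone, where 7.9% of all genes were called and 37.7% passed the adjusted p. On log2(TPM + 1), where the median of all genes was higher by 0.08, 71.4% of called genes were higher, against 60.9% here. In the edgeR fit the median log2 fold change of the 8 genes in tumors over peritumoral liver was -0.44, beside 0.01 for all tested genes.

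In the comparisons that differ in more than 1 factor, tumors had 3 members called against nonDEN-L-CD (20.3% of all genes), 3 against nonDEN-L-WD (15.7%) and 1 against DEN-L-CD (14.3%). The 3 called against nonDEN-L-WD were Fgf21, Cyp4a10 and Acot1. The first 2 were called in all 17 alternative settings, and the Acot1 call (-1.15, adjusted p = 0.037) was lost in 9 of them. In the same 17 settings Cyp4a14 was called in 4 and Ehhadh in 1. Peritumoral liver had 1 called against nonDEN-L-CD (13.3%), where DESeq2 and limma on TPM each added Cyp4a14. None was called between DEN-L-CD and nonDEN-L-WD (0.25%), with 1 of 8 at an unadjusted p under 0.05, beside 2104 of the 15625 tested genes. The interaction of DEN with diet called none of the 8 (2.75% of all genes). Vnn1 and Pdk4 had an unadjusted p under 0.05, 2 of 8 beside 3773 of the 15625 tested genes.

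**Figure D3:**
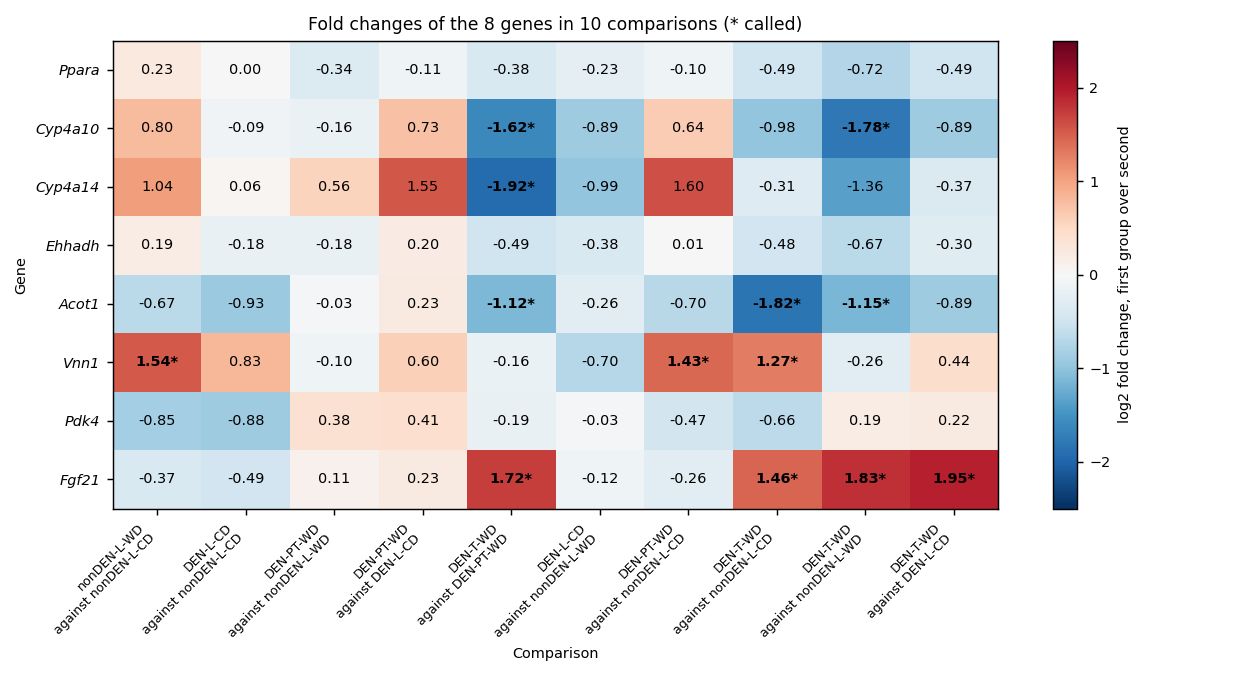
Log2 fold changes of the 8 genes (rows) in the 10 comparisons of pairs of groups (columns, first group over second), with called values in bold with a star. Calls lie in the comparisons with tumors, where Fgf21 is positive in all 4, and in 3 comparisons with nonDEN-L-CD for Vnn1.

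The rest of the fatty acid pathways was read from lists of genes. Over all tested genes 18.1% were lower and 19.5% higher in tumors than in peritumoral liver at an adjusted p of at most 0.05, the background for the counts below. In tumors against peritumoral liver, 16 of 18 genes of peroxisomal fatty acid oxidation were lower at an adjusted p of at most 0.05 and 1 was higher, with a list median of -0.61. Only 2 of the 16 reached the fold for a call, Acot3 and Acaa1b, a peroxisomal thiolase (-1.04 ± 0.23, adjusted p = 0.00124). The single gene that was higher was Abcd2, a peroxisomal transporter of very long-chain fatty acids (1.47 ± 0.37, adjusted p = 0.00298). It was at 4.53 TPM in the tumor replicate 5, below every peritumoral liver (7.45 to 26.7 TPM), and at 44.4 to 68.8 TPM in the other 5 tumors, and without that library the difference was 1.72 (adjusted p = 6.17e-06). Of 10 genes of microsomal omega-oxidation 8 were lower and 1 higher (median -0.81), with Cyp4f14 (-1.21 ± 0.19, adjusted p = 2.95e-05) and Cyp4f15 (-1.15 ± 0.12, adjusted p = 1.94e-07) called lower and Cyp4a31 called higher. Of 17 genes of mitochondrial fatty acid oxidation 11 were lower, none higher and none called (median -0.41), and of 4 genes of ketone body synthesis 3 were lower (median -0.41). Leaving out the tumor replicate 5 gave 15, 9, 11 and 3 genes lower in these 4 lists.

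In uptake, activation and storage of fatty acids 8 of 18 genes were lower in tumors and 4 higher (median -0.29), again beside 18.1% and 19.5% of all genes. Acsl4, a ligase that prefers arachidonate (1.23 ± 0.18, adjusted p = 1.44e-05), and Lpl, lipoprotein lipase (1.02 ± 0.19, adjusted p = 0.000269, and 0.79 without the tumor replicate 5), were called higher and Plin4, a lipid droplet coat protein (-1.17 ± 0.27, adjusted p = 0.00157), lower. Of 12 genes of pyruvate dehydrogenase and its kinases 8 were lower and 1 higher (median -0.29), with 5 lower by limma on log2(TPM + 1). The list of coenzyme A and pantetheine metabolism had 4 of 10 lower and 2 higher (median -0.07), with Nudt7, a peroxisomal hydrolase of coenzyme A, called lower (-1.33 ± 0.11, adjusted p = 3.88e-08) and Vnn3 higher. Among 17 receptor partners and coregulators 4 were lower and 1 higher and none was called, no larger a share than the 37.7% of all genes that passed in either direction. Rxra, the main partner of PPAR alpha in liver, was lower, with -0.28 ± 0.07 (adjusted p = 0.00165).

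**Figure D4:**
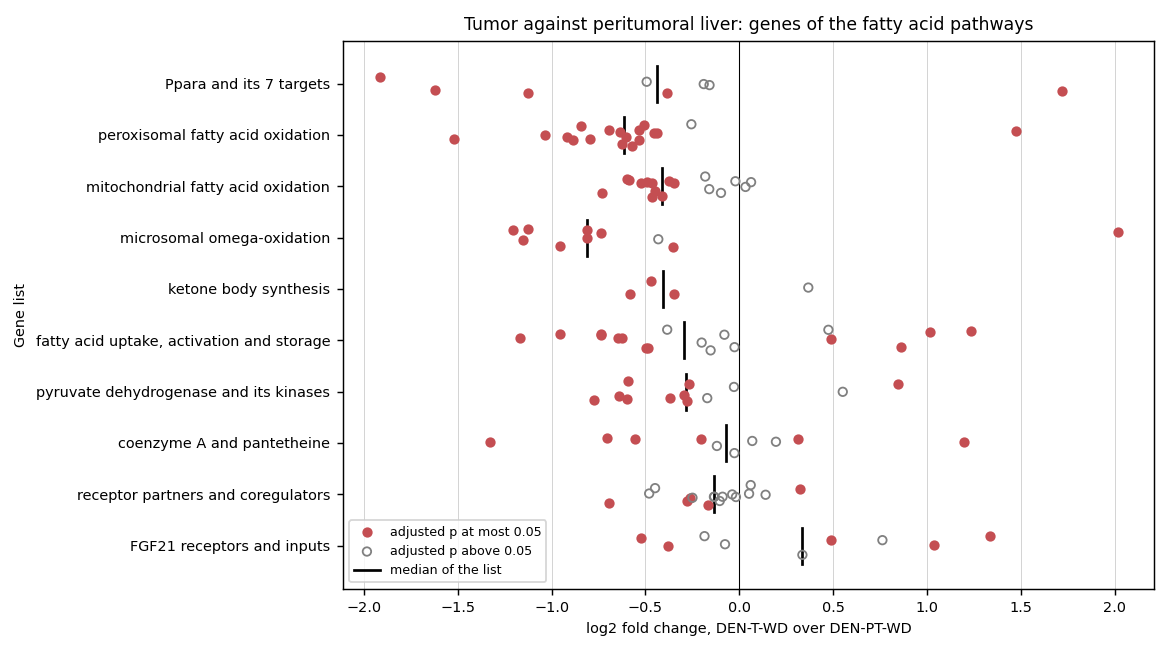
Log2 fold change of each gene in DEN-T-WD over DEN-PT-WD, by gene list, with filled points at an adjusted p of at most 0.05, open points above it and a bar at each list's median. The medians of the peroxisomal (-0.61), omega-oxidation (-0.81) and mitochondrial (-0.41) lists are below 0, and that of FGF21 receptors and inputs (0.34) is above 0. The last of these was -0.16 without the tumor replicate 1.

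The same lists were read for the diet and the carcinogen in liver, where fewer of all genes passed as well. On the western diet in untreated mice 5 of 18 peroxisomal genes were higher and none lower at an adjusted p of at most 0.05 (median 0.35), where 11.2% of all genes were higher and 12% lower, with Abcd2 (2.45 ± 0.59, adjusted p = 0.00497) and Acaa1b (1.25 ± 0.33, adjusted p = 0.00897) called. Also higher were 3 of 17 mitochondrial genes (median 0.21), 2 of 4 ketone body genes (median 0.52) and 1 of 10 omega-oxidation genes, Aldh3a2, the fatty aldehyde dehydrogenase (1.46 ± 0.27, adjusted p = 0.00055). Cd36, a fatty acid transporter (1.92 ± 0.38, adjusted p = 0.000982), and Pparg, the PPAR isoform of fat storage (2.02 ± 0.29, adjusted p = 5.78e-05), rose, and Angptl4, an inhibitor of lipoprotein lipase that is also a PPAR target, fell (-1.12 ± 0.18, adjusted p = 0.000198). DEN-L-CD differed from nonDEN-L-CD in the same direction for Abcd2 (2.83 ± 0.60, adjusted p = 0.00193), Cd36 (1.28 ± 0.37, adjusted p = 0.0152), Pparg (1.48 ± 0.29, adjusted p = 0.0011) and Angptl4 (-1.14 ± 0.18, adjusted p = 0.000157), with nonDEN-L-CD as the shared control. By lists, DEN-L-CD had 2 of 18 peroxisomal genes higher and none lower (median 0.07), none of 17 mitochondrial, 10 omega-oxidation and 4 ketone body genes past an adjusted p of 0.05, and 2 of 17 receptor partners and coregulators higher and 5 lower, where 21.3% of all genes passed in either direction. In peritumoral liver against nonDEN-L-WD, 4 of 18 peroxisomal and 5 of 17 mitochondrial genes were lower and none higher, where 4.87% of all genes were lower and 7.5% higher, and none of the 35 was called. Of cell type markers, 3 of 5 endothelial, 3 of 8 leukocyte and 3 of 6 stellate and fibroblast genes were higher there and none lower, and no hepatocyte marker of 7 passed. The part of these cells in the fall was not tested. Between the diets in DEN mice (DEN-PT-WD over DEN-L-CD) the peroxisomal and the mitochondrial list each had 1 gene lower and none higher (medians -0.01 and -0.09), where 10.6% of all genes passed in either direction.

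Marker genes of other cell types were measured beside the tumor comparison. Of 5 bile duct markers 2 were called higher in tumors than in peritumoral liver, Spp1 (1.97 ± 0.27, adjusted p = 8.86e-06) and Sox9 (1.38 ± 0.22, adjusted p = 4.55e-05). Their summed level was 385 to 833 TPM in tumors against 72.7 to 325 TPM, and Spp1 alone made up 372 to 817 TPM and 60.9 to 317 TPM of it. The ductal keratins, named after their values were seen, were low in both, at 0.8 to 4.6 TPM in tumors and 1.87 to 6.21 TPM in peritumoral liver for Krt19 (-0.96 ± 0.46, adjusted p = 0.109) and 0.2 to 1.5 TPM and 0.38 to 2.55 TPM for Krt7 (-0.70 ± 0.38, adjusted p = 0.161). Of 8 leukocyte markers none was higher and 1 lower, with overlapping sums of 209 to 540 TPM in tumors and 207 to 436 TPM in peritumoral livers, against 135 to 272 TPM in the other 3 groups. Endothelial markers, 1 of 5 higher and none called, summed to 95.1 to 112 TPM in tumors and 77.8 to 105 TPM in peritumoral livers. Stellate and fibroblast markers, 3 of 6 higher, 2 lower and none called, summed to 72.4 to 115 TPM and 51.4 to 82.0 TPM. Of 7 hepatocyte markers 3 were higher in tumors at an adjusted p of at most 0.05 and 1 lower, and albumin had 0.89 ± 0.24 (adjusted p = 0.00622) with all tumors and 1.09 (adjusted p = 7.89e-06) without replicate 5. Their sum, mostly albumin, was 112707 to 134489 TPM in 5 tumors and 32715 TPM in replicate 5, against 40597 to 69305 TPM in peritumoral livers. Of 5 adipose markers 1 was called lower in tumors, Cfd, complement factor D (-1.38 ± 0.50, adjusted p = 0.0326), with sums of 1.87 to 44.0 TPM against 18.3 to 92.8 TPM, and Lep was at 0 in 3 of the 6 tumors and 1 of the 8 peritumoral livers. Acinar pancreas markers varied from 9.72 to 5923 TPM between libraries and were at 2314 TPM in the peritumoral replicate 2, at 5923 TPM in replicate 1 and at 32.9 TPM in the tumor replicate 1. The part of these cells in the fall of Cyp4a10, Cyp4a14 and Acot1 and in the rise of Fgf21 was not tested.

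Within groups Cyp4a10, Cyp4a14 and Acot1 varied together most closely of the 8 genes. Relations between members were computed on log2 CPM (counts scaled to library size) after subtracting each group's mean, over 25 libraries, with 100000 permutations within groups. Among the 21 pairs of targets, a family added after the data were seen, r was above 0 in all 21 (0.29 to 0.94, median 0.52), and 5 pairs passed an adjusted p of 0.05 for both r and rho, none of them with Ehhadh or Fgf21. The 3 closest were Cyp4a10 with Acot1 (r = 0.945, permutation p = 1e-05, adjusted p = 7e-05, rho = 0.879, permutation p = 1e-05, adjusted p = 0.000105), Cyp4a14 with Acot1 (r = 0.918, permutation p = 1e-05, adjusted p = 7e-05, rho = 0.856, permutation p = 1e-05, adjusted p = 0.000105) and Cyp4a10 with Cyp4a14 (r = 0.875, permutation p = 1e-05, adjusted p = 7e-05, rho = 0.817, permutation p = 4e-05, adjusted p = 0.00028), where 1e-05 is the smallest p these permutations can give. Without the 2 libraries farthest from the median of the first gene these r were 0.904, 0.886 and 0.798. Acot1 also passed with Vnn1 (r = 0.515, permutation p = 0.03, adjusted p = 0.0484, rho = 0.567, permutation p = 0.01, adjusted p = 0.042) and with Pdk4 (r = 0.525, permutation p = 0.0267, adjusted p = 0.0484, rho = 0.565, permutation p = 0.00818, adjusted p = 0.042), and these r were 0.553 and 0.691 without the 2 farthest libraries. The r of Ehhadh depended on DEN-T-WD replicate 5. With all libraries it was 0.429 with Cyp4a10, 0.387 with Cyp4a14, 0.358 with Acot1, 0.529 with Vnn1, 0.563 with Pdk4 and 0.287 with Fgf21. Without that library the values were 0.702, 0.720, 0.706, 0.677, 0.728 and 0.449 in the same order, and these were not tested.

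Of the 7 relations of Ppara with its targets none passed for both r and rho. The closest was Pdk4 (r = 0.514, permutation p = 0.0287, adjusted p = 0.201, rho = 0.614, permutation p = 0.00423, adjusted p = 0.0296), and r was 0.494 without the 2 libraries farthest in Ppara, which are the tumor replicate 5 and nonDEN-L-CD replicate 1. For the other 6 targets r lay between -0.03 (Ehhadh) and 0.31 (Acot1). Without those 2 libraries r was -0.21 for Cyp4a10, -0.15 for Cyp4a14 and -0.14 for Acot1.

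**Figure D5:**
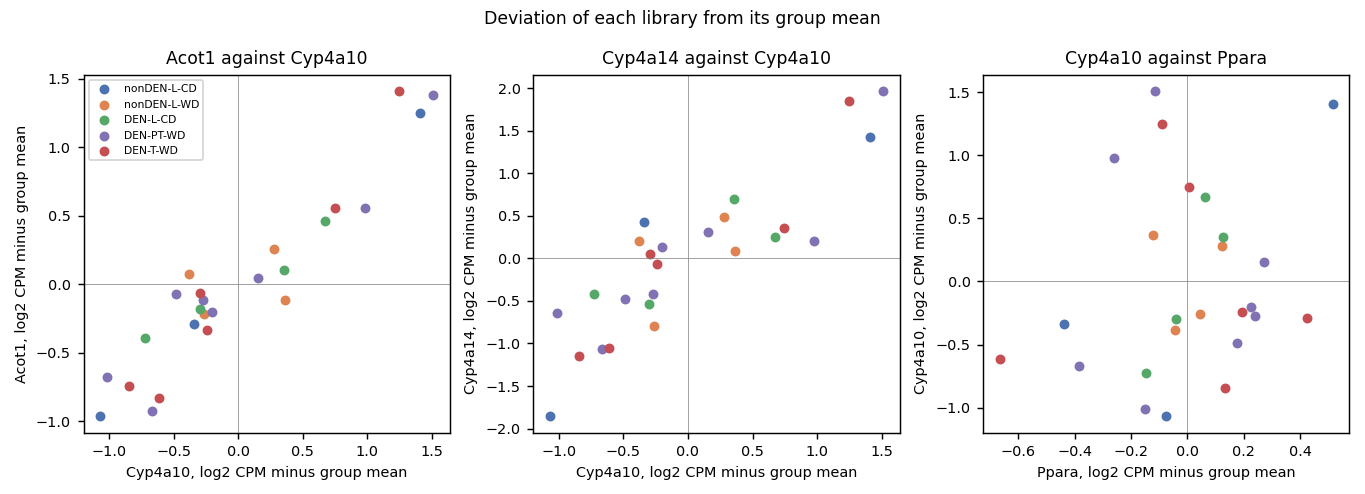
Deviation of each library from its group mean in log2 CPM, for Acot1 and for Cyp4a14 against Cyp4a10 and for Cyp4a10 against Ppara, colored by group. The first 2 panels lie along a rising line (r = 0.945 and 0.875), and the third shows no such line (r = 0.212).

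Over all 25 libraries, group differences included, the genes with the pattern most like each member were found by Pearson's r of log2 CPM among tested genes with a mean of at least 100 normalized counts, as a description. Cyp4a10 was closest to Nr1i3, the xenobiotic receptor CAR (r = 0.874), and to Retsat, retinol saturase (r = 0.825), and Cyp4a14 to Cyp2c38 (r = 0.849) and Acot4 (r = 0.823). Acot1 was closest to Cyp4a32 (r = 0.885) and Amigo2 (r = 0.881), and Vnn1 to Tdrp (r = 0.862) and Cd36 (r = 0.835). In the order in which the groups were introduced, Nr1i3 had group means of 39.8, 94.0, 63.3, 86.7 and 35.5 TPM, and those of Cyp4a10 were 132 ± 115 (SD, n = 3), 250.9 ± 45.3 (n = 4), 129 ± 50.3 (n = 4), 264 ± 174 (n = 8) and 95.7 ± 61.4 (n = 6) TPM. Ppara was nearest to Pdzk1 (r = 0.899) and Aldh9a1 (r = 0.894), Ehhadh to Aldh1a7 (r = 0.882) and Pmpcb (r = 0.882), and Fgf21 to Tubb4b (r = 0.819) and Zmat3 (r = 0.815). Pdk4 had the least similar neighbours, Dusp3 (r = 0.719) and St5 (r = 0.683).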

How the data were processed

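Polyadenylated RNA was sequenced from a single end in 25 libraries of 5 groups, taken from the sample labels. Per the submitters' processing notes the authors checked reads with FastQC, aligned them to GRCm38 with STAR and quantified them with RSEM, and the versions of STAR and RSEM are not given in the sources used here. The deposited expected counts are RSEM's estimates per gene, are not normalized and need not be whole. The deposited TPM values are the authors' RSEM shares of transcripts, corrected for gene length. FPKM values were not used here. The use of strand in counting is not given in the sources used here. Expected counts summed to 21530083 to 38074411 per library, and precision for a gene rests on its own counts.

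These counts, rounded to integers, entered edgeR 4.0.16 under R 4.3.3 (TMM, filterByExpr, glmQLFit and glmQLFTest), with all 5 groups in 1 fit, with Benjamini-Hochberg adjustment over 15625 genes. SE is the absolute log2 fold change over the square root of F. Symbols came from GENCODE M21. Alternatives were DESeq2 1.42.0, DESeq2 size factors, no filter on low counts, limma 3.58.1 on log2(TPM + 1) and log2(TPM + 0.1), only the groups compared, the replicate number as a block and each library left out. Correlations used SciPy 1.17.1. The edgeR procedure was tested on simulated data.

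The members and gene lists were chosen with earlier results of these data known. The text names all 8 members, up to 2 called genes with the largest rise and 2 with the largest fall per list in the 5 principal comparisons (a selection is printed), the family neighbours of members (1 gene is not reported here), and the 2 genes most like each member. Libraries of the same group all differed by more than sampling noise (smallest chi-square per gene 26.8). The Tf symbol of the hepatocyte list had no match.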

Additional observations from a re-analysis of the deposited data

Results flagged for a closer look

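In 32 combinations of gene and group of 4 to 10 libraries, the highest or lowest TPM was tested for its gap to the others by Dixon's criterion at 95%, and 6 stood apart. Chance gives about 1 in 20 for normally distributed values. TPM was not log-transformed for this test, so the 6 are not read as more than chance gives. Cyp4a14 was at 707.54 TPM in DEN-PT-WD replicate 2, with the other peritumoral livers between 87.66 and 243.67 TPM, and Acot1 was at 58.75 TPM in the same library, with the others between 11.88 and 32.56 TPM. In DEN-T-WD replicate 1, Cyp4a14 was at 191.08 TPM against 24.57 to 66.29 TPM in the other tumors, and Fgf21 was at 42.51 TPM against 7.88 to 18.56 TPM. Ehhadh was at 341 TPM in DEN-T-WD replicate 5, with the other tumors between 83.02 and 132.89 TPM. Ppara was at 77.38 TPM in nonDEN-L-WD replicate 4, below the other 3 livers of that group (98.92 to 101.87 TPM). On log2 CPM minus the group mean this library was at -0.12 and the other 3 at 0.04, -0.04 and 0.12, without such a gap. The cause of these gaps was not tested.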

How the results depend on the processing

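Of the counts of members called and of relations of Ppara that passed, 10 values under alternatives moved by over 1.5 times and 189 did not. The 4 calls in tumors over peritumoral liver were 3 in 6 of 21 alternatives, those in which Acot1 was lost. Between the diets in DEN mice (DEN-PT-WD over DEN-L-CD) 1 member was called with limma on log2(TPM + 1) and 1 on log2(TPM + 0.1), in place of 0. For DEN-PT-WD against nonDEN-L-CD, 2 were called by DESeq2, by each limma fit and with the replicate block, in place of 1. Leaving out 1 library gave 1 to 2 calls for nonDEN-L-WD over nonDEN-L-CD, 0 to 1 for DEN-L-CD over nonDEN-L-CD, 1 to 3 for DEN-PT-WD over nonDEN-L-CD and 1 to 3 for DEN-T-WD over DEN-L-CD.

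Signs turned only in results that did not pass the test, among the alternatives run. With limma on log2(TPM + 1) and log2(TPM + 0.1) the log2 fold change was 0.24 and 0.24 for Cyp4a10 in DEN-L-CD over nonDEN-L-CD, 0.0467 and 0.0441 for Acot1 and 0.0561 and 0.0556 for Vnn1 in DEN-PT-WD against nonDEN-L-WD, 0.11 and 0.11 for Ppara in DEN-PT-WD over DEN-L-CD, and 0.0377 and 0.0391 for Vnn1 and 0.0131 and 0.0253 for Pdk4 in DEN-T-WD against DEN-PT-WD. On TPM the median of all tested genes shifted, by 0.21 and 0.28 for DEN-PT-WD over DEN-L-CD and by 0.08 and 0.12 for tumors over peritumoral liver, where genes called went from 1235 (60.9% higher) to 539 (71.4%) and 1020 (73.8%). Over all genes, limma on log2(TPM + 1) called 300 in place of 825 for nonDEN-L-WD over nonDEN-L-CD, 234 in place of 734 for DEN-L-CD over nonDEN-L-CD (44.4% against 58.9% higher), 206 in place of 432 for DEN-PT-WD over nonDEN-L-WD and 180 in place of 297 for DEN-PT-WD over DEN-L-CD, where log2(TPM + 0.1) called 708 (93.4% against 80.1% higher). DESeq2 called 95 genes in place of 39 between DEN-L-CD and nonDEN-L-WD. In a fit of only DEN-L-CD and nonDEN-L-CD, Ppara had -0.0023. The r of Ppara with Ehhadh was 0.0416 on TPM, 0.5684 without tumors and 0.347 without the 2 libraries farthest in Ppara, and without these 2 it was -0.21 with Cyp4a10, -0.149 with Cyp4a14, -0.139 with Acot1 and -0.121 with Fgf21.

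Leaving out 1 library gave these ranges in results whose sign turned: in nonDEN-L-WD against nonDEN-L-CD, -0.0046 to 0.50 for Ehhadh and -1.05 to 0.20 for Acot1; in DEN-L-CD against nonDEN-L-CD, -0.19 to 0.29 for Ppara, -0.49 to 0.94 for Cyp4a10, -0.43 to 0.87 for Cyp4a14 and -0.38 to 0.13 for Ehhadh. In DEN-PT-WD against nonDEN-L-WD the range was -0.33 to 0.0797 for Acot1, -0.21 to 0.0169 for Vnn1 and -0.0746 to 0.41 for Fgf21, and in DEN-PT-WD against DEN-L-CD it was -0.0700 to 0.41 for Acot1.

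Replicate numbers are shared between groups, and nothing in the labels or methods says that equal numbers mark the same mouse. For tumors and peritumoral liver the correlations of same-numbered deviations ran from -0.23 to 0.34 over 6 pairs, with 1 library closest to its own number. For DEN-L-CD and nonDEN-L-CD they ran from 0.052 to 0.31 over 3 pairs, with 3 libraries closest to their own number, and in the other 3 comparisons checked the lowest was below 0. In no comparison was every pair above 0.1, so the numbers were not taken as pairs. With the replicate block Cyp4a10 in DEN-L-CD over nonDEN-L-CD was 0.17, Vnn1 in DEN-PT-WD against nonDEN-L-WD was 0.059, and the 4 calls in tumors against peritumoral liver stayed past the threshold. With it Ehhadh was lower in tumors than in peritumoral liver (-0.75, adjusted p = 0.016) and than in nonDEN-L-WD (-0.98, adjusted p = 0.00494), Cyp4a14 was called against nonDEN-L-WD (-1.51, adjusted p = 0.0476), Vnn1 was higher in DEN-PT-WD over DEN-L-CD (0.78, adjusted p = 0.0423), and Ppara had an adjusted p of 0.0977 against nonDEN-L-CD and 0.0582 against DEN-L-CD in tumors. The cause of these changes was not tested. Pdk4 and Fgf21 had the fewest counts of the 8 genes and so the largest relative counting error, and whether depth limited any test was not tested.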

Other observations

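The 8 genes were also set against 13 clock genes and 14 acute phase genes within groups (216 relations on log2 CPM with group means subtracted, chosen after the data were seen, 100000 permutations within groups). Only 5 relations passed an adjusted p of 0.05 for both r and rho, all of them Ehhadh with acute phase genes and all with r below 0. The 3 fibrinogen chains, coagulation proteins that rise in inflammation, were the closest: Fgb (r = -0.788, permutation p = 2e-05, adjusted p = 0.00144, rho = -0.824, permutation p = 1e-05, adjusted p = 0.00108), Fga (r = -0.779, permutation p = 2e-05, adjusted p = 0.00144, rho = -0.81, permutation p = 2e-05, adjusted p = 0.00144) and Fgg (r = -0.768, permutation p = 2e-05, adjusted p = 0.00144, rho = -0.793, permutation p = 1e-05, adjusted p = 0.00108). Without DEN-T-WD replicate 5 these r were -0.684, -0.677 and -0.662, and without the 2 libraries farthest in the first gene they were -0.653, -0.632 and -0.624. For Ppara, r was above 0 with 10 of the 13 clock genes (median 0.60), the highest with Dbp, a clock output gene (r = 0.804, permutation p = 0.0005, adjusted p = 0.027, rho = 0.698, permutation p = 0.0021, adjusted p = 0.0756), and r was 0.604 without the 2 farthest libraries. The hour of harvest was not given, and its part in these relations was not tested.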
